A study of Mus musculus with 15 samples.

Results

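The liver is the main site of cholesterol synthesis in the mouse, and the 27 genes described here cover that pathway, the sterol sensor that drives it and part of the receptor system that opposes it. They were taken as a list of gene symbols matched to the Ensembl identifiers of the count table, 27 of 55450 gene IDs, and no measured value was used to choose them. All 27 passed the filter on low counts, among 15808 genes that could be tested, and the lowest count of any of them in any mouse was 68 read pairs (Idi1 in mouse O5). By role, 7 genes encode the mevalonate arm from acetoacetyl-CoA to farnesyl diphosphate, 11 encode the steps from farnesyl diphosphate through squalene to cholesterol, 4 encode sterol-sensing proteins, 1 encodes a sterol carrier (Stard4) and 4 belong to the LXR branch.

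Cholesterol is built from acetyl-CoA through mevalonate, the isoprenoid diphosphates, squalene and a series of sterol intermediates. When sterols in the endoplasmic reticulum are scarce, SCAP escorts the membrane-bound factor SREBP2, encoded by Srebf2, to the Golgi, where it is cleaved so that its soluble part can enter the nucleus and switch on nearly every enzyme of the pathway. When sterols are plentiful, the INSIG proteins hold SCAP back, and oxysterols activate LXR alpha, encoded by Nr1h3, whose targets Abca1, Abcg1 and Mylip export cholesterol or limit its uptake.

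Liver RNA came from 15 female C57BL/6 mice, 5 per group, with 1 library per mouse and all mice on the same chow diet. The Adult group (A1 to A5) was aged 6 months and the Old group (O1 to O5) was aged 22 months, and each was gavaged daily with corn oil as vehicle. The PDX group (P1 to P5) was aged 22 months and was gavaged with protectin DX, a lipid mediator, at 30 ng/g of body weight in corn oil, for 9 weeks per the sample labels. By the authors' account, these are the ages at the start of the study, and liver was collected at its end. There was no young group given PDX, so in PDX against Adult the treatment and age cannot be told apart.

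Counted read pairs per mouse ran from 22424383 to 36070835 in the Adult group, from 25480180 to 29069346 in the Old group and from 26113995 to 30139181 in the PDX group. Levels are given as CPM, the counts scaled to a common library size with TMM factors. O2 and O5 stood apart from the rest of the Old group in several cell-type and metabolic markers. The summed CPM of 8 hepatocyte markers was 62955 in O5 and 77404 in O2, against 127218 to 140603 in the Adult mice, 131168 to 205426 in the other 3 Old mice and 112547 to 165667 in the PDX mice, and none of the 8 was at 0 in any mouse. Alb made up 82.4% to 84.7% of that sum in the Adult mice and 55.2% in O5. Without Alb the sum of the other 7 was 28231 in O5, above the Adult mice (20479 to 24708), and 11760 in O2, below them. O5 was the highest of the 15 mice for 2 of the 8 markers (Hnf4a and Tat) and the lowest for 2. In bulk tissue, fewer cells of a type and less RNA per cell cannot be told apart.

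Promoter sequence was at hand in RefSeq windows (GRCm38.p6, 250 bases before to 50 after each annotated start) for 22 of the 27 genes, and Fdps, Fdft1, Sqle, Stard4 and Abcg1 had none. The windows were searched on both strands for the sterol response element core CACCCCAC and the related TCACNCCAC, which SREBP binds, for CCAAT and GGGCGG, which NF-Y and SP1 family factors bind beside it, and for an LXR element written as 2 half-sites in 1 direction, 4 bases apart. The half-site was AGGTCA, with GGGTCA and AGTTCA also accepted. A match to TCACNCCAC can overlap one to CACCCCAC. The core CACCCCAC was in 2 of the 29 windows of these genes (Acat2 and Hmgcs1) and in 2.87% of all 32851 windows, and TCACNCCAC was in 1 (Hmgcs1) and in 1.24% of all windows. CCAAT was in 18 of the 29 windows, 62.1%, and in 37.4% of all windows. GGGCGG was in 23 of the 29, 79.3%, and in 35.7% of all windows. The LXR element in these exact letters was in 0 of the 29 and in 0.0639% of all windows. An element with other half-site letters would be missed, so this 0 does not show that a window lacks one. A match in these letters is a description of the window and not a measured site.

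The windows below are those of both genes with the core (Hmgcs1 and Acat2), of an enzyme without it (Mvk), and of Insig2 and Abca1, whose levels are described later. Each runs from 200 to 31 bases upstream of the RefSeq start, 170 bases written 5′ to 3′ along the gene's strand, and none overlaps an annotated GENCODE exon. Capitals mark the core or its relative, the CCAAT box and the GGGCGG box, each as it reads on the printed strand, so that an inverted CCAAT box reads ATTGG. Hmgcs1 lies at chr13:119690151-119690320 (plus strand), Acat2 at chr17:12960756-12960925 (minus), Mvk at chr5:114444069-114444238 (plus), Insig2 at chr1:121332620-121332789 (minus) and Abca1 at chr4:53159926-53160095 (minus).
Hmgcs1: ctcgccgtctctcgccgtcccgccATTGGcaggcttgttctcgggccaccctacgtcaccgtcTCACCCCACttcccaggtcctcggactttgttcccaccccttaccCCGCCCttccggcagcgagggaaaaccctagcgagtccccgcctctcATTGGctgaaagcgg
Acat2: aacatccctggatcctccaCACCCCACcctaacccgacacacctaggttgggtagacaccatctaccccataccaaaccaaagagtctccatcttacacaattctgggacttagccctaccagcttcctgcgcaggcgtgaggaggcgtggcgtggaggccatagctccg
Mvk: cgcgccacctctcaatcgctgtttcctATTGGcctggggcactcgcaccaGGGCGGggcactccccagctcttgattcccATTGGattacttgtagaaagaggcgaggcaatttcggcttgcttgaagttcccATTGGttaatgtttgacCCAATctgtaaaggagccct
Insig2: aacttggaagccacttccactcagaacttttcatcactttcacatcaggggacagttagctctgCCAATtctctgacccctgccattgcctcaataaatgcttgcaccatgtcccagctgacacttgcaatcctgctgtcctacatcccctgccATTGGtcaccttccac
Abca1: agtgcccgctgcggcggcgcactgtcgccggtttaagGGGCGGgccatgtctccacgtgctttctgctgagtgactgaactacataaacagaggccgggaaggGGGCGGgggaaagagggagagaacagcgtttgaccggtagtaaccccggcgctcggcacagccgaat

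In Hmgcs1 the core began 136 bases before the start, between a pair of inverted CCAAT boxes, and in Acat2 it began 181 bases before the start with no CCAAT box in the window. Mvk had no core in these letters and 5 CCAAT boxes in its 300 bases, 4 of them in the stretch shown. Insig2 had 3 CCAAT boxes in the 300 bases of the window shown and Abca1 had none. Insig2 also has windows at other annotated starts, not printed here, in which GGGCGG but no CCAAT was matched. The core was missing from the windows of 20 of the 22 genes, most of the enzymes among them, so it did not separate the enzymes from Insig2, Abca1 and Mylip. Mylip had 3 CCAAT boxes, so CCAAT did not separate the enzymes from Insig2 and Mylip. Abca1 lacked CCAAT, unlike every enzyme with a window except Acat2.

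**Figure D1:**
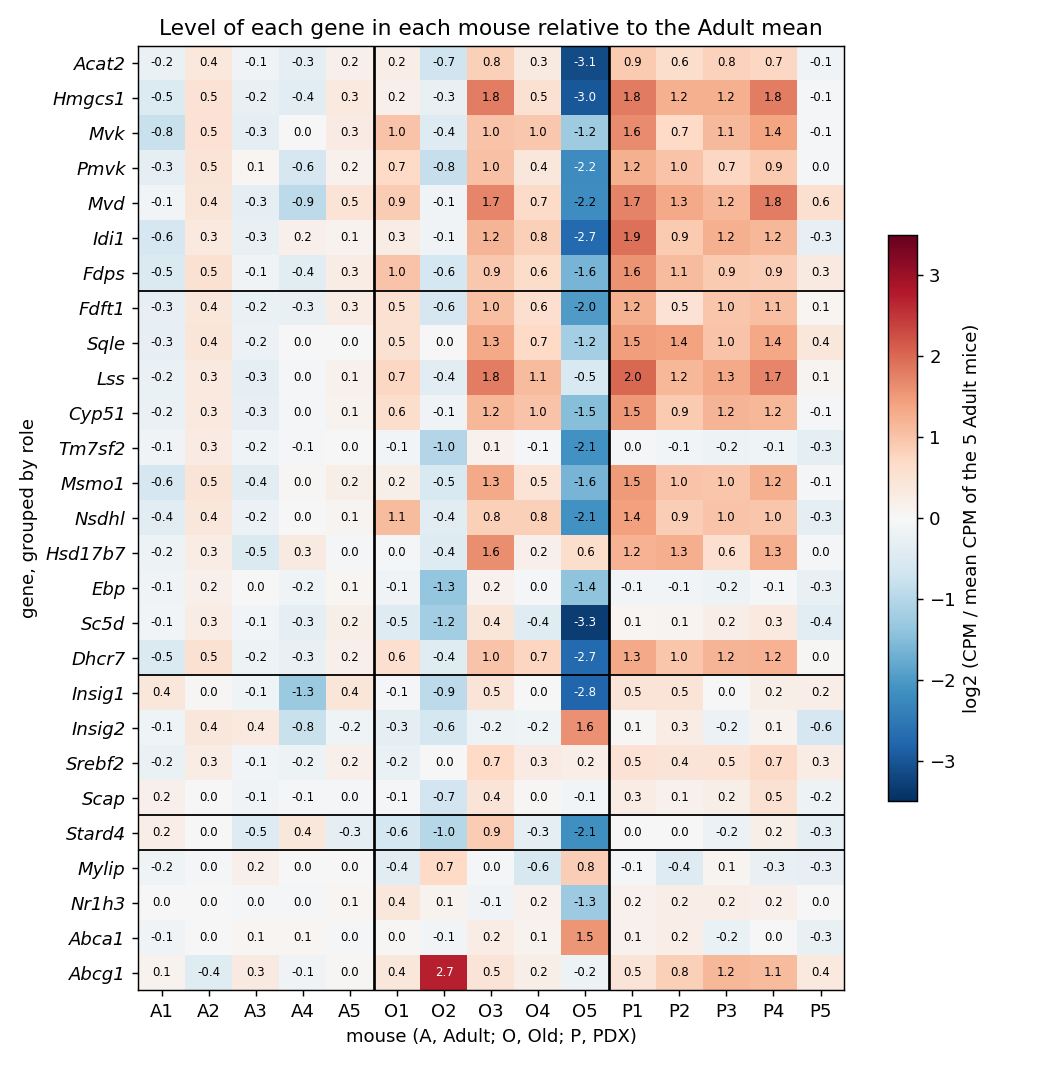
Heat map of the 27 genes (vertical axis, grouped by role with horizontal lines) in the 15 mice (horizontal axis, groups divided by vertical lines), with the colour and the printed number giving log2 of CPM over the mean CPM of the 5 Adult mice. O5 is blue for nearly every enzyme and red for Insig2 and Abca1, P1 to P4 are red for most enzymes, and P5 is close to the Adult mice.

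Levels per length set the scale of each step. In the Adult group the highest CPM per kb of exon was that of Insig1 (211 ± 81.4, SD, n = 5), followed by Sc5d (187 ± 31.3), Ebp (127 ± 12.2) and Hmgcs1 (124 ± 39.5). Insig1 and Sc5d, and Ebp and Hmgcs1, did not differ beyond their spread. Abcg1 was lowest, with 1.39 ± 0.258 CPM per kb, below Idi1 (4.63 ± 1.14) and Mylip (4.66 ± 0.394), which did not differ beyond their spread. In the PDX group Hmgcs1 came first (315 ± 130 CPM per kb), ahead of Insig1 (256 ± 35.0) and Sc5d (199 ± 35.5), again with overlapping spreads.

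Enzyme levels differed widely from mouse to mouse. Taking for each mouse the median over 18 enzymes of log2 (CPM / Adult mean), the Adult mice ranged from -0.29 (A1) to 0.39 (A2). Among the Old mice the medians were 0.53 in O1, -0.44 in O2, 1.03 in O3, 0.61 in O4 and -2.05 in O5. Among the PDX mice they were 1.45 in P1, 0.95 in P2, 0.99 in P3, 1.16 in P4 and -0.06 in P5. The Old group thus held mice above and below every Adult mouse, and 4 of 5 PDX mice lay above every Adult mouse. The medians leave out enzymes that went another way: O5 had 17 of 18 enzymes below all Adult mice and 1 above, O1 had 10 above and 1 below, and P3 had 15 above and 2 below. The median over all 15808 tested genes stayed between -0.03 and -0.01 in every mouse.

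The spread within a group was widest among the Old mice. The SD of log2 CPM among the Old mice had a median of 1.19 over the 18 enzymes, against 0.54 over all tested genes. It was 0.69 over the enzymes without O5, against 0.40 over all genes. In the Adult group the same median was 0.33 over the enzymes (0.21 over all genes) and in the PDX group 0.51 (0.23).

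Hmgcs1 encodes the cytosolic HMG-CoA synthase at the head of the mevalonate arm. Its CPM was 410, 805, 481, 434 and 727 in A1 to A5, 651, 477, 1983, 821 and 73.0 in O1 to O5, and 2015, 1356, 1358, 1962 and 543 in P1 to P5. 4 of 5 PDX mice were above every Adult mouse, and O5 was below every other mouse, at 12.8% of the Adult mean. The group means were 571 ± 182, 801 ± 717 and 1447 ± 596 CPM (SD, n = 5 each), so the PDX mean was 2.53 times the Adult mean.

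Acat2, the cytosolic acetoacetyl-CoA thiolase that feeds it, had a mean of 86.3 ± 18.1 CPM in the Adult group and 134 ± 32.3 CPM in the PDX group (SD over 5 mice), and its lowest value was 9.85 CPM in O5. Mvk and Pmvk, the kinases that phosphorylate mevalonate, had PDX means of 2.10 and 1.78 times the Adult mean. For both, P1 to P4 were above all Adult mice and P5 was inside the Adult range.

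Mvd, the decarboxylase that makes isopentenyl diphosphate, had CPM of 51.2, 74.4, 44.3, 29.1 and 76.6 in A1 to A5, 102, 50.9, 180, 87.6 and 12.2 in O1 to O5, and 185, 137, 123, 190 and 81.1 in P1 to P5. It was the only enzyme of the 18 for which the PDX and Adult mice did not overlap. Idi1, the isopentenyl diphosphate isomerase, and Fdps, farnesyl diphosphate synthase, had PDX means of 2.22 and 2.01 times the Adult mean. Idi1 was at 2.45 CPM in O5 and at 10.8 to 61.5 CPM in the other 14 mice. Fdps shares 1124 exon bases on the same strand with a neighbouring annotated gene (Gm43738), so its level is uncertain to that extent.

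Sqle, the squalene epoxidase that makes the first oxygenated sterol precursor, had CPM of 116, 190, 122, 140 and 139 in A1 to A5. It had 203, 140, 352, 227 and 61.6 in O1 to O5 and 388, 373, 284, 362 and 185 in P1 to P5. P5 fell just inside the Adult range and the other 4 PDX mice were above it.

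Lss, lanosterol synthase, which closes the sterol rings, had CPM of 99.4, 146, 92.0, 113 and 128 in A1 to A5, 193, 88.5, 404, 250 and 80.4 in O1 to O5, and 463, 259, 292, 378 and 125 in P1 to P5. Its PDX mean was 2.63 times the Adult mean, the highest such ratio among the 27 genes. In O5 it was at 69.6% of the Adult mean, so the low level of the other enzymes in that mouse was less deep here.

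Fdft1 (squalene synthase, which acts before Sqle) and, of the later sterol steps, Cyp51 (lanosterol demethylase), Msmo1 (C4 methyl oxidase), Nsdhl (C4 decarboxylase), Hsd17b7 (3-ketosteroid reductase) and Dhcr7 (7-dehydrocholesterol reductase) had PDX means 1.77 to 2.05 times the Adult mean. For each of the 6, exactly 4 PDX mice were above all Adult mice. Hsd17b7 differed from the rest in O5, where it had 98.5 CPM, above all 5 Adult mice (45.6 to 79.8 CPM).

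Tm7sf2 (a sterol C14 reductase), Ebp (the sterol isomerase) and Sc5d (lathosterol desaturase) did not share the higher PDX level. Ebp had CPM of 272, 333, 296, 263 and 307 in A1 to A5, 271, 116, 327, 285 and 110 in O1 to O5, and 273, 275, 258, 281 and 247 in P1 to P5. The 3 groups overlapped, and O2 and O5 stood at 39.6% and 37.2% of the Adult mean. The PDX mean was 0.895 times the Adult mean for Tm7sf2, 0.907 times for Ebp and 1.06 times for Sc5d, while O5 was the lowest mouse for all 3. Tm7sf2 shares 532 exon bases on the same strand with Vps51.

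**Figure D2:**
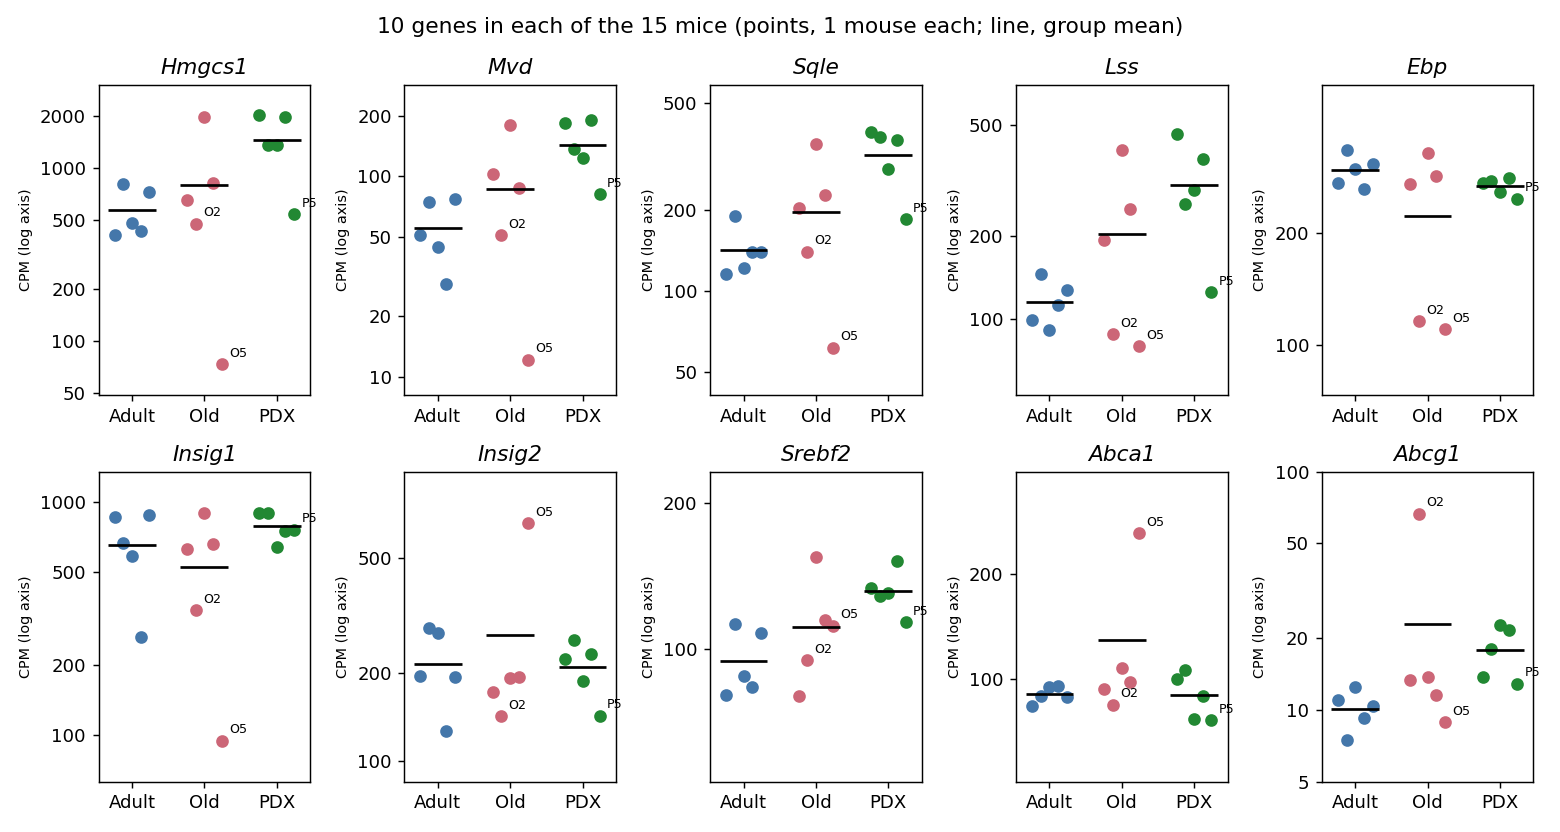
CPM on a log axis (vertical) of 10 of the genes in each mouse (points) by group (horizontal axis), with the group mean as a line and mice O2, O5 and P5 labelled where they are not hidden. Hmgcs1, Mvd, Sqle and Lss show O5 at the bottom of the Old group and P1 to P4 above the Adult points, whereas Insig2 and Abca1 show O5 at the top and Abcg1 shows O2 at the top.

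The sterol-sensing genes did not move as 1 unit. Insig1, itself an SREBP target, had CPM of 863, 668, 590, 264 and 885 in A1 to A5, 629, 345, 902, 665 and 94.8 in O1 to O5, and 896, 900, 644, 751 and 763 in P1 to P5. The Adult and PDX groups overlapped, and A4 was the low Adult mouse. Insig2, whose liver transcript is known to rise in fasting, had CPM of 195, 287, 276, 127 and 194 in A1 to A5, 172, 142, 192, 194 and 660 in O1 to O5, and 224, 261, 188, 234 and 143 in P1 to P5. O5 had 3.06 times the Adult mean of Insig2 while it had 14.5% of the Adult mean of Insig1.

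Srebf2 was narrower than its target genes. Its CPM was 80.5, 113, 88.1, 83.8 and 108 in A1 to A5, 80.1, 95.0, 155, 115 and 112 in O1 to O5, and 134, 129, 131, 152 and 114 in P1 to P5. All 5 PDX mice were above all Adult mice, by a narrow margin for P5. In O5 Srebf2 was not low, at 118% of the Adult mean. Scap, its escort protein, had means of 160 ± 13.3, 157 ± 41.3 and 186 ± 32.6 CPM in the Adult, Old and PDX groups (SD, n = 5 each), with overlap throughout.

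Stard4, a soluble sterol carrier and SREBP2 target, had means of 107 ± 26.0, 86.4 ± 66.8 and 103 ± 14.6 CPM in the 3 groups (SD, n = 5 each). The Old mice spread from 24.3 CPM (O5) to 199 CPM (O3), and no PDX mouse was above the Adult range.

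In the LXR branch, Nr1h3 had CPM of 123 to 134 in the Adult mice, 117 to 167 in O1 to O4 and 127 to 149 in the PDX mice, and 52.4 in O5. Abca1, which loads cholesterol onto nascent HDL, had CPM of 83.2, 89.3, 94.7, 95.3 and 88.3 in A1 to A5, 93.2, 84.1, 107, 98.0 and 262 in O1 to O5, and 100, 106, 76.6, 89.3 and 75.8 in P1 to P5. O5 alone was far from the rest, at 2.91 times the Adult mean. Mylip, the ubiquitin ligase that marks lipoprotein receptors for degradation, was highest in O5 (27.2 CPM) and O2 (24.6 CPM) and lay between 10.3 and 17.0 CPM in the other 13 mice.

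Abcg1, a sterol exporter known to be abundant in macrophages, had CPM of 11.0, 7.50, 12.5, 9.26 and 10.4 in A1 to A5. It had 13.3, 66.7, 13.8, 11.6 and 8.87 in O1 to O5 and 13.8, 18.1, 22.7, 21.7 and 12.9 in P1 to P5. O2 stood apart at 6.59 times the Adult mean, and all PDX mice were above all Adult mice. The summed CPM of 6 Kupffer cell markers moved with it: it was 382 to 588 in the Adult mice, 2633 in O2, 247 in O5, 470 to 806 in the other Old mice and 661 to 1414 in the PDX mice, with no marker at 0. The summed CPM of 8 markers of recruited and lipid-associated macrophages was 128 to 183 in the Adult mice, 1220 in O2, 230 to 285 in the other Old mice and 274 to 708 in the PDX mice. Of the Kupffer cell markers, Marco was highest in P3 (197 CPM), with 91.3 CPM in O5 and 38.5 CPM in O2. O2 was high for other immune cells too. The sum of 8 lymphocyte markers was 238 in O2 and 7.01 to 11.9 in the Adult mice, and that of 6 neutrophil markers was 116 and 2.47 to 5.38. The part of these cells in the Abcg1 values was not tested.

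**Figure D3:**
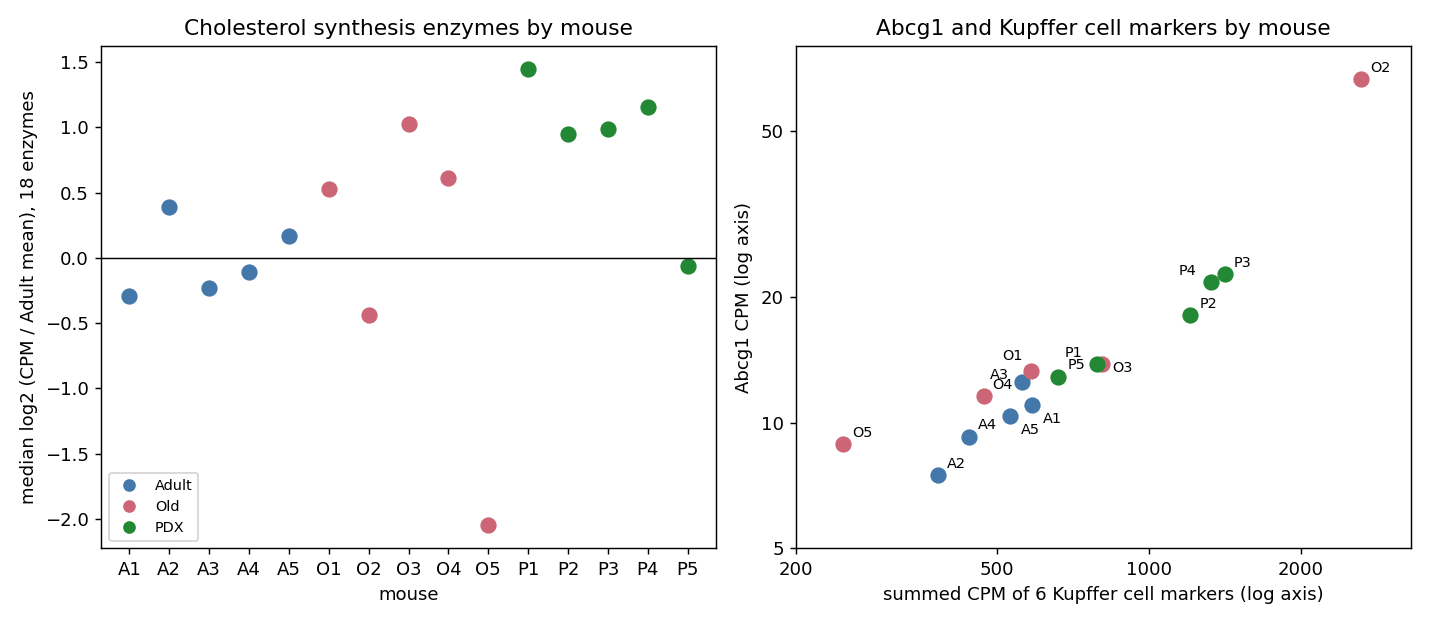
Left, the median over 18 enzymes of log2 (CPM / Adult mean) on the vertical axis for each mouse on the horizontal axis, coloured by group, with O5 lowest at -2.05 and P1 highest at 1.45. Right, Abcg1 CPM (vertical) against the summed CPM of 6 Kupffer cell markers (horizontal), both on log axes, 1 labelled point per mouse, with O2 at the upper right and P2, P3 and P4 next.

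Over the whole list, O5 was the lowest of the 15 mice for 20 of 27 genes and for 17 of the 18 enzymes, whereas it was lowest for 28.4% of all tested genes. It was the highest for 3 of 27 (Insig2, Mylip and Abca1), against 25.9% of all genes. 19 of 27 genes in O5 were at or under 50% of the Adult mean, against 21.1% of all genes. P1 was the highest mouse for 13 of the 18 enzymes.

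O5 also stood apart in other genes, but not in 1 direction. Of 9 other SREBP2 targets, it was the lowest of the 15 mice for 7 and the highest for 1. Among them, Elovl6 was at 2.44%, Acss2 at 4.78% and Fads2 at 9.27% of the Adult mean in O5, but Tmem97 at 111%. Low levels in O5 were thus not limited to the cholesterol enzymes. Of 12 LXR partners and other LXR targets, O5 was the lowest for 6 and the highest for 3. Of 10 genes of the fasting and feeding response it was the highest mouse for 3 and the lowest for 5. Igfbp1, which fasting and stress raise, was at 5504 CPM in O5 and at 20.3 to 728 CPM in the other mice. Fgf21, which fasting is also known to raise, was lowest in O5 at 0.469 CPM, and Pdk4, another such gene, was inside the range of the others at 28.6 CPM. Of 13 clock genes O5 was the highest for 4, among them Per1 (276 CPM against 6.58 to 79.4 CPM), and inside the range for 9. The summed CPM of 8 acute phase genes was 46312 in O5, 10414 to 24401 in the other Old mice, 8050 to 9703 in the Adult mice and 14552 to 48444 in the PDX mice. By the labels, O5 also had the highest frailty index (0.56) and the shortest wheel distance (0.0398725 km per day) of the 15 mice. Its change in body weight was the most negative (-3.55%), a value that by the authors' account is an average weekly change. The part of these states in the enzyme levels was not tested.

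Old was compared with Adult to ask what age did to these genes. With edgeR's quasi-likelihood test fitted to all 15 mice, 0 of 27 genes had an adjusted p under 0.05, whereas 6.78% of all tested genes did. 1 gene (Abcg1) had an unadjusted p under 0.05, against 27.7% of all genes, and DESeq2 also called 0. The log2 fold change was above 0 for 19 of 27 genes, with a median of 0.28, beside 56.8% and a median of 0.07 over all genes. The largest was that of Abcg1 (1.18 ± 0.46, SE, edgeR adjusted p = 0.113), which became 0.24 without O2. Lss followed (0.81 ± 0.41, adjusted p = 0.208), and the lowest was Sc5d (-0.58 ± 0.43, adjusted p = 0.402). For Insig2 and Abca1 the fold changes of 0.33 and 0.52 became -0.31 and 0.08 without O5. No gene of the list separated the Old from the Adult mice without overlap in the upward direction, against 3.65% of all genes.

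Without O2 and O5, chosen as the mice that stood apart, 5 of 27 genes were higher in the 3 remaining Old mice by the same edgeR test (Mvd, Sqle, Lss, Cyp51 and Nsdhl), against 4.85% of all genes. Their log2 fold changes were 0.90 to 1.30, and the median over the 27 genes was 0.74, beside 0.01 over all genes. O2 and O5 were the 2 Old mice with the lowest enzyme medians, so leaving them out raises the Old level by construction, and these 5 calls are no independent support for a higher level with age. With all mice the median was 0.28. It was 0.50 without O5 and 0.02 without O3, 0.01 with a replicate block and 0.03 with limma on the log2-scale values, with a count of 0 in each.

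PDX was compared with Old to ask what the compound did in aged mice. 0 of 27 genes passed in edgeR, as did 0.0% of all tested genes, and DESeq2 called none of the 27. 0 of 27 had an unadjusted p under 0.05, against 5.28% of all genes. The log2 fold change was above 0 for 23 of 27 genes and for all 18 enzymes, with medians of 0.57 and 0.63, beside 40.1% and -0.07 over all genes. The individual values ranged from -0.53 to 0.85, with standard errors of 0.17 to 0.58. Hmgcs1 had the largest (0.85 ± 0.58, SE, edgeR adjusted p = 0.793), and Sqle was the enzyme with the smallest p (0.69 ± 0.35, adjusted p = 0.793). Without O5 the median over the 27 genes was 0.32, and without O2 and O5 it was 0.14. 0 of 27 genes separated PDX above Old without overlap, against 0.145% of all genes. P1 to P4 each lay above the range of the Adult mice for 15 or 16 of the 18 enzymes, but so did O3 for 16 and O4 for 12.

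PDX against Adult gave the largest differences. In the fit of all 15 mice, whose spread includes that of the Old mice, 0 of 27 genes passed, against 2.66% of all genes. 12 of 27 were higher at an unadjusted p under 0.05, against 11.2% of all genes. These 12 were Hmgcs1, Mvk, Mvd, Idi1, Fdps, Sqle, Lss, Cyp51, Msmo1, Hsd17b7, Dhcr7 and Srebf2. The smallest adjusted p-values were those of Sqle (1.17 ± 0.35 on the log2 scale, SE, edgeR adjusted p = 0.0826) and Lss (1.39 ± 0.41, adjusted p = 0.0830). The median log2 fold change was 0.82 over the 27 genes and 1.01 over the 18 enzymes, beside -0.01 over all genes. The 2 groups also differed in the summed CPM of the 13 clock genes, 345 to 885 in the Adult mice and 216 to 324 in the PDX mice. In the Old mice that sum was 209 to 964, and 0 of the 13 passed in PDX against Adult in this fit. The part of clock state in the differences of the 27 genes was not tested.

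The count of calls changed with the mice in the fit. Fitted on the 10 PDX and Adult mice alone, edgeR called 17 of 27 genes, all higher in PDX, against 16.1% of all genes tested that were called higher. The log2 fold changes barely moved, but the standard errors fell, for Hmgcs1 from 0.58 to 0.32. All 7 mevalonate genes passed, with adjusted p-values up to 0.0226 (Acat2, which did not pass without A1, A3, A4 or P1, at 0.0519 to 0.0553). Of the squalene and sterol steps 8 of 11 passed, led by Sqle (1.18 ± 0.20, SE, edgeR adjusted p = 0.00139) and Lss (1.40 ± 0.28, adjusted p = 0.00334). Tm7sf2 (-0.15 ± 0.09), Ebp (-0.13 ± 0.08) and Sc5d (0.10 ± 0.15) did not pass, with adjusted p-values of 0.252, 0.249 and 0.656.

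In the same 10-mouse fit, Srebf2 was the only sterol-sensing gene to pass (0.49 ± 0.11, SE, edgeR adjusted p = 0.00659). Insig1 had 0.28 ± 0.26 (adjusted p = 0.440), Insig2 -0.03 ± 0.21 (0.933) and Scap 0.23 ± 0.12 (0.165). Abcg1 passed (0.83 ± 0.18, adjusted p = 0.00540) and Abca1 had 0.00 ± 0.10 (0.997), Mylip -0.17 ± 0.11 (0.270) and Nr1h3 0.17 ± 0.06 (0.0624). Stard4 had -0.05 ± 0.16 (0.837).

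The edgeR fit of the mice left without O2 and O5 called 17 of 27, all higher, against 24.6% of all genes in either direction. Leaving out these deviant mice narrows the spread shared by the groups, so these calls are no independent support for those of the 10-mouse fit. DESeq2 on all 15 mice called 2 (Sqle and Lss, against 7.7% of all genes in either direction). edgeR without P5 called 1 (Lss, against 3.64%). 3 of 27 genes (Mvd, Srebf2 and Abcg1) separated PDX above Adult without overlap, against 10.5% of all genes. With at least 4 PDX mice above all Adult mice the count was 18 of 27, against 18.3% of all genes, and P5 was the mouse that overlapped in most of them.

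**Figure D4:**
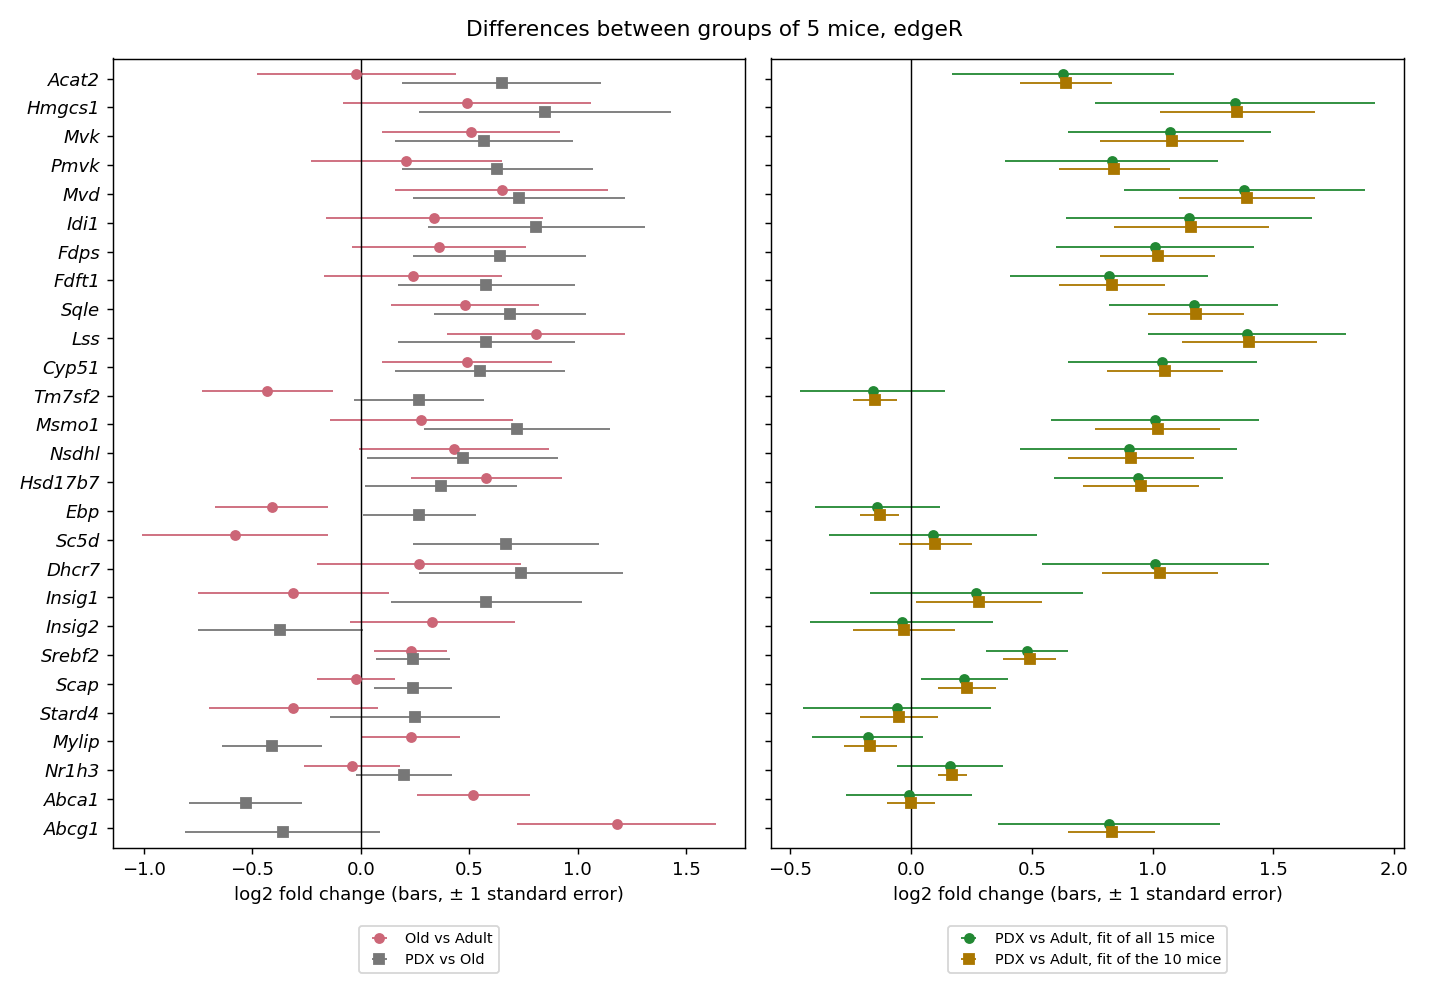
Log2 fold change (horizontal axis, bars ± 1 standard error from edgeR) of each gene (vertical axis), left for Old vs Adult and PDX vs Old, right for PDX vs Adult in the fit of all 15 mice and in the fit of the 10 mice. The right panel shows nearly equal values with shorter bars in the 10-mouse fit, and Tm7sf2, Ebp, Sc5d, Insig2, Stard4 and Abca1 close to 0.

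The genes around the pathway gave few calls. Of 10 genes for SREBP processing and sterol-regulated degradation, 9 of the isoprenoid branches, 11 of sterol esterification and oxysterol formation and 8 other SREBP2 targets that could be tested, 0 passed in any of the 3 comparisons in the 15-mouse edgeR fit. Of 12 LXR partners and other LXR targets, 2 were lower and 1 higher in Old than in Adult. Abcg5 and Abcg8, the 2 parts of the transporter that secretes sterols into bile, fell by 1.27 ± 0.25 and 1.20 ± 0.25 on the log2 scale (SE, edgeR adjusted p = 0.0148 and 0.0194). Abcg5 had 115 to 179 CPM in the Adult mice, 32.6 to 84.1 CPM in the Old mice and 56.8 to 128 CPM in the PDX mice, and every Old mouse was below every Adult mouse for both genes, a separation that 4.48% of all genes showed. For Abcg8 the adjusted p was 0.0552 without A4, 0.0505 without A1 and 0.057 in the fit of only the 2 groups.

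Lpl, lipoprotein lipase, rose by 1.76 ± 0.50 (SE, edgeR adjusted p = 0.0471) between Adult and Old. O2 held 198 CPM of it against a mean of 19.9 ± 2.50 CPM in the Adult group (SD, n = 5), and without O2 the log2 difference was 0.81 with an adjusted p of 0.0902. Without any 1 of the 5 Adult mice its adjusted p was 0.0918 to 0.108. In PDX against Adult, Lpl had an adjusted p of 0.130. Macrophage markers were high in the same mice: Lpl was highest in O2 and next in P3 (76.1 CPM), where the summed CPM of the 8 markers of recruited and lipid-associated macrophages was 1220 and 708, against 128 to 183 in the Adult mice. O2 was also high for the lymphocyte and neutrophil sums given above. The part of these cells in the Lpl values was not tested.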

How the data were processed

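Liver mRNA was sequenced from 15 mice, 1 library each. The authors aligned paired reads to mm10 with STAR (version 2.6.0c) and counted unique proper pairs on the sense strand of non-mitochondrial Ensembl genes with featureCounts (Subread, version 1.6.2), and the counts were deposited without normalization. A second deposited table holds values on a log2 scale from the authors' variance stabilization in DESeq2 (version 1.23.10), and it served here as 1 alternative input.

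Symbols, coordinates and exon lengths came from GENCODE M21, which gave a symbol to 55190 of 55450 gene IDs, and promoter windows from RefSeq. Counts were filtered with filterByExpr (minimum count 10, minimum total count 15), scaled with TMM factors and tested with the quasi-likelihood test of edgeR (version 4.0.16, R 4.3.3), with 1 coefficient per group over all 15 mice, two-sided, and Benjamini-Hochberg adjustment over all 15808 genes at a threshold of 0.05. CPM are TMM-scaled. Replicates are separate mice. Tables were made with Python 3.11.15 and pandas 2.3.3. On counts simulated for Old against Adult, with 200 of 15808 genes changed by 2 on the log2 scale, the test called 178 genes, 176 of them changed ones. The 27 genes differed by at most 1.39 in the 15-mouse fit, so this simulation gives no measure of power for differences of their size.

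The alternatives were DESeq2 (version 1.42.0), RLE and upper-quartile factors, no low-count filter or a stricter one (1 CPM in 5 mice), only the 2 groups compared, limma (version 3.58.1) on the log2-scale values, a replicate block, and fits without each mouse and without O2 and O5. For PDX against Adult, the fit of only the 2 groups is the same fit as the 10-mouse fit. Its separate description, its own alternatives, and those for Abcg5, Abcg8 and Lpl were added after seeing the data. All 27 genes are named. Of the pathway lists, genes past the threshold are named, as are some for their level in O5, and marker lists are given by sums. The genes and lists were chosen with earlier results of these data known.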

Additional observations from a re-analysis of the deposited data

Results flagged for a closer look

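In each group of 5 mice, the highest and the lowest CPM of each of the 27 genes were set against the rest of the group with Dixon's ratio, the gap to the nearest mouse over the range of the group. 3 of 81 groups had a mouse past its critical value, where chance alone marks about 1 in 20. Insig2 in O5 was at 660 CPM, against 142 to 194 CPM in the other Old mice (ratio 0.900). Abca1 in O5 was at 262 CPM, against 84.1 to 107 CPM (ratio 0.869). Abcg1 in O2 was at 66.7 CPM, against 8.87 to 13.8 CPM (ratio 0.915). The low enzyme levels of O5 did not pass this ratio on the CPM scale, since the other Old mice were themselves widely spread.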

How the results depend on the processing

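Old vs Adult called 0 of 27 genes under every alternative except the fit without O2 and O5, which called 5. PDX vs Old called 0 under all alternatives. PDX vs Adult called 0 of 27 except with the Wald test of DESeq2 (2), in the fit of only the 2 groups (17) and without O2 and O5 (17). The fit of only the 2 groups is here the 10-mouse fit and not a further result. When each mouse was left out in turn, PDX vs Adult called 0 to 1, the 1 (Lss) without P5. In the 10-mouse fit the count of 17 became 16 to 19 without each mouse, 17 or 18 with other tests, factors and filters, and 12 with a replicate block. The replicate block otherwise called 0 in every comparison, and lost Acat2, Mvk, Idi1, Fdft1 and Nsdhl in the 10-mouse fit. That fit also called Scap and Nr1h3 without P5. Same-numbered mice are different animals, and their deviations from the group means correlated between -0.215 and 0.285 (15 pairs, median -0.0389), so the numbers were not taken to pair them. 5 of the 15 mice correlated best with a mouse of their own number.

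The median log2 fold change of the 27 genes ranged from 0.02 to 0.50 in Old vs Adult, from 0.32 to 0.82 in PDX vs Old and from 0.70 to 0.96 in PDX vs Adult when each mouse was left out in turn. In Old vs Adult it was 0.28 with all mice, 0.50 without O5, 0.44 without A2, 0.42 without O2 and 0.02 without O3. It was 0.01 with a replicate block and 0.03 with limma on log2-scale values. In PDX vs Old it was 0.57 with all mice, 0.32 without O5, 0.82 without O3 and 0.14 without O2 and O5. The cause of these shifts was not tested beyond the mice named. The 27 genes had at least 68 counted pairs in every mouse, so counting error is small beside the spread between mice, and 5 mice per group limit the precision.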
